A study of Homo sapiens with 2 samples.

Results

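Genes used to recognise liver progenitor cells and liver cancer cells, 10 in all, were measured in Huh-7, a long-established line from a human hepatocellular carcinoma, after transfection with siRNA against DEPDC1. The genes TSPAN8, PROM1, CD24, EPCAM, GPC3, CD44, KRT19, ALCAM, SOX9 and DLK1 were taken as a list by gene symbol. The rule uses no measured value, but the list was drawn up with earlier results of these data known. All 10 had a probe set of their own on the array, among 18417 genes that did, and together they had 11 probe sets. Total RNA was measured on 2 expression arrays. The NC array came from cells transfected with the control that the labels call NC. The siRNA array came from cells transfected with DEPDC1 siRNA. Both cultures were collected at 72 h. Neither the nature of NC nor the number and sequence of the siRNAs is given in the sources used here, so effects of the siRNA on other transcripts cannot be told apart from those of DEPDC1 loss.

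Each group had 1 array, so the difference between the 2 arrays has no replicate spread, no test was made and no p-value is given. Values are deposited log2 expression values. Differences are given as siRNA minus NC, so 1 log2 unit is a 2-fold difference. Detection required that at least 1 of a gene's 2 values be at or above 4.66, the median over all probe sets, which is a chosen limit rather than a background measured on these arrays. It left 11352 genes, and of these 49.9% had a higher value in the siRNA array and their median difference was 0.00. DEPDC1 itself had 7.82 in NC and 5.15 in siRNA cells (-2.67). Of the 10 hepatocyte and carcinoma line markers listed for a check of identity, all 8 that could be named on the array were detected, including ALB (albumin, 11.89 in NC) and AFP (alpha-fetoprotein, 10.89 in NC). With 1 array a group, the number of arrays sets the precision of all that follows.

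The fetal liver holds bipotent cells, hepatoblasts, that give rise to hepatocytes and to the cells of the bile ducts. Hepatoblasts carry DLK1 and EPCAM, biliary cells keep EPCAM, KRT19 and SOX9, and mature hepatocytes lose most of these. Hepatocellular carcinomas can express these genes again, together with GPC3, and PROM1, CD24, CD44 and EPCAM have been used to sort tumour cells with stem cell properties. Most of the list are cell surface proteins, whereas KRT19 is a cytoplasmic filament protein and SOX9 a nuclear transcription factor.

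The 10 markers differed in both directions. TSPAN8 and PROM1 were at least 2-fold higher in the siRNA array and no marker was at least 2-fold lower. ALCAM and KRT19 were higher by less than 2-fold, CD24 and GPC3 were lower by less than 2-fold, and EPCAM, SOX9 and DLK1 lay within 0.13 log2 units of no difference in every probe set. CD44 was not detected in either array. Thus 9 of the 10 markers were detected, of which 2 were at least 2-fold higher, 0 at least 2-fold lower and 7 between. By measured values, the background over all detected genes was 220 (1.94%) past 2-fold upward and 98 (0.863%) past 2-fold downward. With a fold of 1.5, a limit chosen after seeing the data, 3 markers were higher and 0 lower, against 6.03% and 3.74% of all detected genes. The median difference of the 9 detected markers was 0.10, which is the value of the brighter EPCAM probe set, and 0.09 with the other one.

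**Figure D1:**
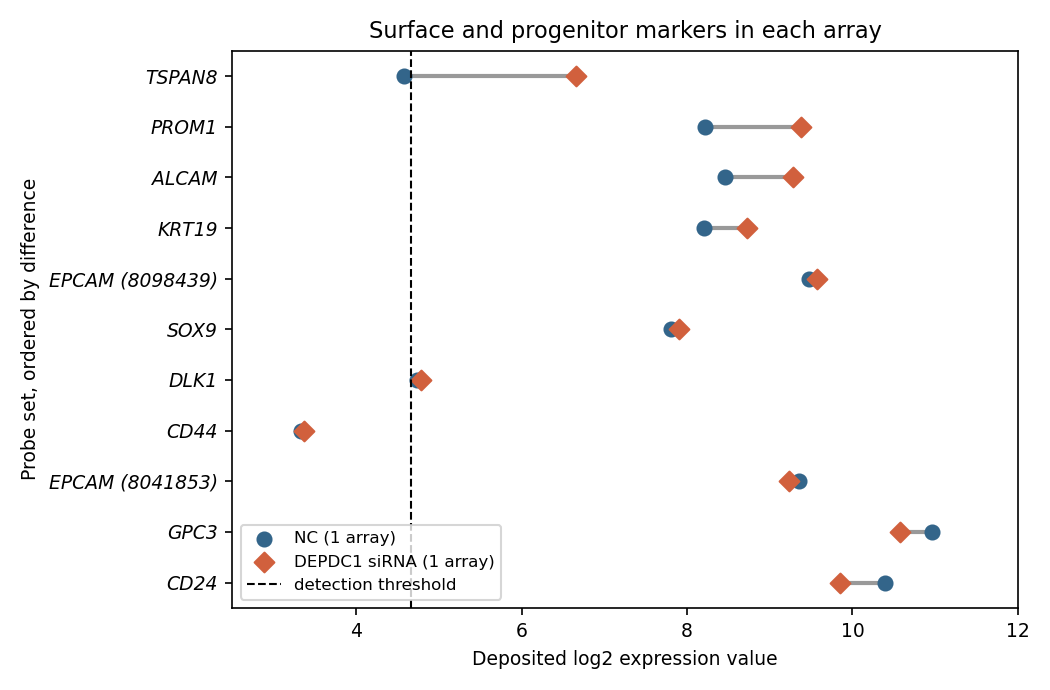
Deposited log2 expression value (horizontal axis) of each of the 11 probe sets of the 10 markers, 1 row a probe set, ordered by difference; circles are the NC array, diamonds the siRNA array and the dashed line is the detection threshold of 4.66. TSPAN8 crossed the threshold from 4.58 to 6.66, PROM1 and ALCAM shifted to the right, CD24 and GPC3 to the left, and the symbols of SOX9, DLK1 and both EPCAM probe sets nearly coincide.

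TSPAN8 differed most. It encodes a tetraspanin, a small protein with 4 membrane-spanning helices that gathers integrins and other receptors in the membrane, and it is found in epithelia of the gut and in several carcinomas. Its single probe set (7964927, Entrez gene 7103) read 4.58 in NC and 6.66 in siRNA cells, so it was higher by 2.08 log2 units. The NC value lay 0.08 log2 units under the detection threshold, so TSPAN8 is given as at least 4.01-fold higher, with the threshold in place of the NC value. Only the siRNA array thus held a value above the threshold.

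The sequence before the TSPAN8 start is shown because this marker crossed from below to above the threshold. RefSeq promoter windows (GRCh38.p14, 250 bases before to 50 after a gene start) were at hand for 5 of the 10 markers, TSPAN8 (2 windows), PROM1 (4), CD24 (3), CD44 (1) and ALCAM (1). None was found for EPCAM, GPC3, KRT19, SOX9 and DLK1. Windows of one gene can overlap. The 250 bases before the more upstream TSPAN8 start lie at chr12:71158000-71158249, minus strand, with capitals at the 1 match in them to a searched motif, GGAATG (the TEAD motif), read here on the opposite strand 73 bases before the start:
TSPAN8: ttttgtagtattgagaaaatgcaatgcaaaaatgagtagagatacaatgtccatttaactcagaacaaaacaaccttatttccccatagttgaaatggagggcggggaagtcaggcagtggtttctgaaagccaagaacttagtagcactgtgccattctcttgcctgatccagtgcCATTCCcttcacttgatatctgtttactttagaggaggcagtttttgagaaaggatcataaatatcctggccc
This window has a GC content of 42.3%, against a median of 58.7% over the 35116 windows of the table, of which 14.0% hold GGAATG. The window of the other TSPAN8 start has a GC content of 38.0% and holds GTTAAT (a core of the HNF1 motif) 3 times, 116, 84 and 52 bases before that start, in a short repeat. GTTAAT is held by 6.88% of all windows. The same window also holds CAAAGN 5 times, a motif found in 47.4% of all windows, and those matches are left in lower case. These 3 matches, with 9 bases on each side and GTTAAT in capitals, lie on the minus strand at chr12:71157911-71157934, chr12:71157879-71157902 and chr12:71157847-71157870:
match 1: aatgtgtgaGTTAATagcctttga
match 2: aatgtgtggGTTAATagcctttgc
match 3: aatgtgtggGTTAATttttttatc
None of these 4 matches overlaps another searched motif. The searched motifs were TGANTCA (AP-1), GGAATG (TEAD), GTTAAT (HNF1 core), CAAAGN (HNF4 and TCF cores) and TGGGAA (RBPJ), on both strands. A match describes letters only and shows no binding.

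PROM1, also known as CD133, was the second marker at least 2-fold higher. It encodes prominin 1, a cholesterol-binding protein of membrane protrusions that is widely used to sort stem-like cells from liver tumours. Its probe set (8099476, Entrez gene 8842) read 8.21 in NC and 9.38 in siRNA cells, which is 1.17 log2 units or 2.25-fold higher. Both values lay well above the detection threshold, by 3.56 and 4.73 log2 units. PROM1 ranked 136 of the 11352 detected genes counted from the highest difference. Of the 912 other detected genes whose mean of both arrays lay within 0.5 log2 units of its own, 12 (1.32%) differed by as much in either direction.

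PROM1 has 4 RefSeq start windows, and the one farthest upstream is printed to set beside that of TSPAN8, since these are the 2 markers past 2-fold. Its 250 bases before the start lie at chr4:16084024-16084273 on the minus strand and hold none of the 5 searched motifs, so no letter is in capitals:
PROM1: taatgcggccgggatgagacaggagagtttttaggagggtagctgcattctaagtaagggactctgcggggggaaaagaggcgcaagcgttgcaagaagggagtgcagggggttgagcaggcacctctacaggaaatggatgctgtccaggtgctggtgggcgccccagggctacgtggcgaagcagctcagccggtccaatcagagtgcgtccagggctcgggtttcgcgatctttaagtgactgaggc
The 300-base window has a GC content of 60.7% and 18 CpG dinucleotides, against 42.3% and 1 for the TSPAN8 window above. The PROM1 window farthest downstream, with a GC content of 56.3% and 6 CpG, holds TGANTCA once, 189 bases before its start, as 7.71% of all windows do. That match, at chr4:16076292-16076316 on the minus strand, is given with 9 bases on each side:
PROM1, AP-1 motif: gaccttctgTGAGTCAtggctttga
Of the 11 windows of the 5 markers, 1 (9.09%) held TGANTCA, 2 (18.2%) GGAATG, 1 (9.09%) GTTAAT, 6 (54.5%) CAAAGN and 2 (18.2%) TGGGAA. Over all windows of the table the shares were 7.71%, 14.0%, 6.88%, 47.4% and 24.0%, in the same order. The single ALCAM window held CAAAGN once and no other searched motif. The arrays do not tell which start is used.

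ALCAM was higher by less than 2-fold. It encodes CD166, an adhesion molecule of the immunoglobulin superfamily that binds itself and CD6 on T cells and marks progenitor and tumour cells of several organs. ALCAM (probe set 8081431) read 8.46 in NC and 9.28 in siRNA cells, which is 0.82 log2 units or 1.77-fold higher. Of 853 other detected genes of similar mean, 34 (3.99%) differed by as much. It was the third marker past a fold of 1.5, after TSPAN8 and PROM1.

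The adhesion molecule EPCAM was nearly level between the arrays, and its 2 probe sets had opposite signs. EPCAM joins epithelial cells by binding itself, and its released inner part can act in Wnt signalling. Probe set 8098439 had 9.47 in NC and 9.57 in siRNA, a difference of 0.10. Probe set 8041853 had 9.36 in NC and 9.23 in siRNA, a difference of -0.13. Their differences were 0.23 log2 units apart. In the 444 genes that had at least 2 detected probe sets, the differences within a gene spanned a median of 0.09 and a 90th percentile of 0.41 log2 units, and in 25% of them they spanned at least as much as in EPCAM. Both probe sets carry the same transcript accessions in the annotation, and it does not state how they differ. Their identifiers lie far apart. By number, 8098439 falls between the probe sets of ADAM29 and ANKRD37, and 8041853 between those of ABCG8 and ACYP2. The 2 may thus lie at different places in the genome. Whether the brighter one, which gives the gene's value, reads a copy rather than EPCAM itself was not tested. No direction is therefore given for EPCAM.

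CD24 was lower by less than 2-fold, and CD44, often used with it in sorting, was not detected. CD24 is a short, heavily glycosylated protein held by a lipid anchor. Its probe set (8177222) had 10.39 in NC and 9.85 in siRNA, a difference of -0.54 or 1.46-fold lower, the largest difference downward among the markers. It ranked 507 of the detected genes from the lowest difference, and 28 of 237 others of similar mean (11.8%) differed by as much. CD24 has near-identical copies elsewhere in the genome, so its signal may not come from that gene alone. CD44, the receptor for hyaluronan, had 3.33 in NC and 3.36 in siRNA. Both values lay about 1.3 log2 units under the detection threshold, so no difference is read from them.

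Of the biliary and progenitor markers, KRT19 was higher by less than 2-fold and SOX9 was nearly level. KRT19 encodes keratin 19, a type I keratin of bile duct and progenitor cells. Its probe set (8015349) had 8.20 in NC and 8.72 in siRNA, a difference of 0.52 or 1.44-fold higher, and 169 of 1223 others of similar mean (13.8%) differed by as much. KRT19 too has processed copies in the genome that could share signal. SOX9, a transcription factor needed for bile duct formation, had 7.81 in NC and 7.90 in siRNA (probe set 8009517). Its difference of 0.09 was equalled or passed by 76.0% of detected genes of similar mean.

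Of the oncofetal markers, GPC3 was lower by less than 2-fold and DLK1 was nearly level. GPC3, glypican 3, is a lipid-anchored heparan sulfate proteoglycan and a tissue marker of hepatocellular carcinoma. It had 10.96 in NC and 10.57 in siRNA (probe set 8175234), a difference of -0.39 or 1.31-fold lower. Of 109 others of similar mean, 23 (21.1%) differed by as much. DLK1, a hepatoblast protein related to the Notch ligands, had 4.74 in NC and 4.78 in siRNA (probe set 7976783). These values lay 0.08 and 0.12 log2 units above the detection threshold, so DLK1 was at the edge of detection in both arrays.

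**Figure D2:**
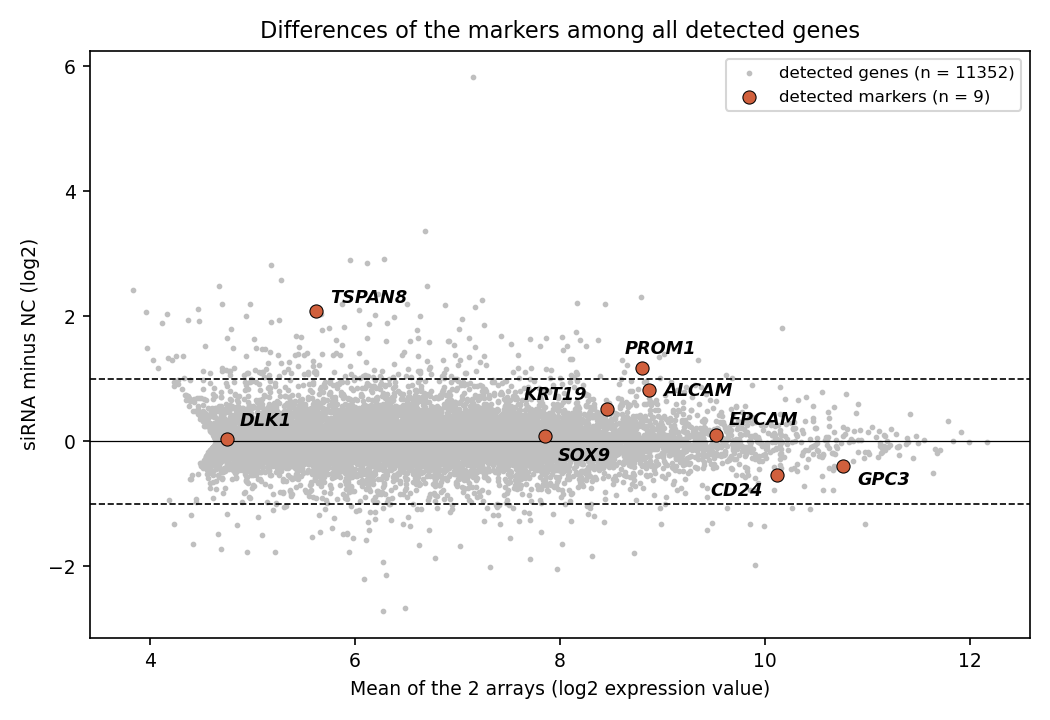
Difference between the arrays (siRNA minus NC, log2, vertical axis) against the mean of the 2 arrays (log2, horizontal axis) for all 11352 detected genes (grey) and the 9 detected markers (orange); dashed lines are a 2-fold difference. TSPAN8 at 2.08 and PROM1 at 1.17 lie above the upper dashed line, and CD24 at -0.54 is the lowest marker.

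Genes beside the markers on the chromosome were looked at after the data had been seen, taking on each side the nearest gene with a probe set of its own by the order of genes in RefSeq's GRCh38.p14 table. Of these 20 neighbours 9 were detected, and 0 of the 9 differed by 2-fold. With values under the threshold set to it, their differences ran from -0.22 to 0.53. This setting bears on KCNK12, beside EPCAM, whose siRNA value was under the threshold, and on GPC4. LGR5, the gene beside TSPAN8, encodes a receptor for R-spondins and is itself a stem cell marker. It had 5.70 in NC and 6.12 in siRNA, a difference of 0.42. TAPT1, beside PROM1, differed by 0.30, and CBLB, beside ALCAM, by 0.40. The largest difference was that of GPC4, the glypican gene beside GPC3, which had 4.38 in NC, under the threshold, and 5.18 in siRNA, at least 1.44-fold higher, while GPC3 was lower. MEG3, the imprinted noncoding gene beside DLK1, had 3.89 in both arrays and was not detected.

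Related gene families were read against the same background shares of 1.94% and 0.863%. The tetraspanin list had 21 detected genes besides TSPAN8, 12 higher and 9 lower, with 0 past 2-fold and a median of 0.14. TSPAN31 differed by 0.84, TSPAN15, a partner of the sheddase ADAM10, by 0.81, TSPAN13 by 0.80 and UPK1B by 0.71, against 2.08 for TSPAN8. Of 10 genes listed as nearest relatives of the markers, 8 could be named on the array, 5 of them detected and 0 were past 2-fold, with a median of -0.04. The relative of PROM1, PROM2, was not detected (4.16 and 4.10), nor was TSPAN1 (3.03 and 2.94) or LYVE1, the relative of CD44 (2.91 and 2.47). MCAM, listed for ALCAM, differed by 0.43. SOX8 and SOX10, listed for SOX9, differed by -0.54 and 0.00, DLK2, listed for DLK1, by -0.30 and GPC5, listed for GPC3, by -0.04.

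Partners of the adhesion markers included 1 gene past 2-fold. Of 16 detected partners, sheddases and hyaluronan genes listed for EPCAM and CD44, 1 was at least 2-fold higher and 0 lower, with a median of 0.11. That gene was HAS2, a synthase of hyaluronan, the CD44 ligand. It had 4.83 in NC and 6.25 in siRNA, a difference of 1.42 or 2.67-fold higher, in cells where CD44 was under the threshold in both arrays. MMP14, a membrane protease that can cleave CD44, differed by 0.89, and FHL2, which binds the inner part of EPCAM, by 0.68. PSEN2, a subunit of the protease that releases it, fell under the threshold after DEPDC1 siRNA and was at least 1.36-fold lower. Among 12 detected adhesion molecules of the immunoglobulin type, relatives of ALCAM, 8 were higher and 4 lower, 0 by 2-fold, with a median of 0.33. NRCAM differed by 0.78, CEACAM1 by 0.70, ICAM1 by 0.43 and MCAM by 0.43. CD6, the ligand on T cells, was not detected (4.46 and 4.54).

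The keratin, glypican, SOX and Notch lists also had 0 genes past 2-fold. Of 6 detected keratins besides KRT19, 3 were higher and 3 lower, with a median of 0.07. KRT18 differed by 0.71, and KRT8, its filament partner, and KRT23 each by 0.45. KRT13, under the threshold in the siRNA array, was at least 1.22-fold lower. KRT7 and KRT20 were not detected. Of 17 detected genes for glypicans, syndecans and heparan sulfate enzymes, 11 were higher and 6 lower, with a median of 0.12. GPC1 differed by 0.48, and the enzymes GLCE and HS6ST1 by -0.58 and -0.49. Of 12 detected SOX genes besides SOX9, 7 were higher, 4 lower and SOX10 equal, with a median of 0.07, SOX5 differing by 0.73, SOX6 by 0.47 and SOX12 by 0.25. The 15 detected Notch pathway genes stayed between -0.31 and 0.31, with a median of -0.02. JAG1, a Notch ligand, differed by 0.31, HES1, a Notch target, by 0.30 and the receptor NOTCH1 by -0.31.

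Of the other progenitor and oncofetal genes outside the 10 markers, AFP alone was past 2-fold. Of 14 detected genes in the list of further liver progenitor and cancer stem cell markers, 9 were higher and 5 lower, 0 by 2-fold, with a median of 0.23. ITGA6, integrin alpha 6, had the largest difference of these and was lower (8.68 and 7.93, -0.75). KRT18 differed by 0.71, SPP1, the secreted protein osteopontin, by 0.56 and KLF4 by 0.54. Of 12 detected oncofetal and imprinted genes, 6 were higher and 6 lower, with a median of -0.05. AFP, the classical fetal liver and tumour serum marker, had 10.89 in NC and 8.92 in siRNA, 3.92-fold lower, and was the only one of the 12 past 2-fold. Among its fellow members, LIN28A was at least 1.06-fold higher, CDKN1C differed by -0.34 and HMGA1 by -0.32. AFP and GPC3, often measured together as tumour markers, were thus both lower in the siRNA array but by -1.97 and -0.39.

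**Figure D3:**
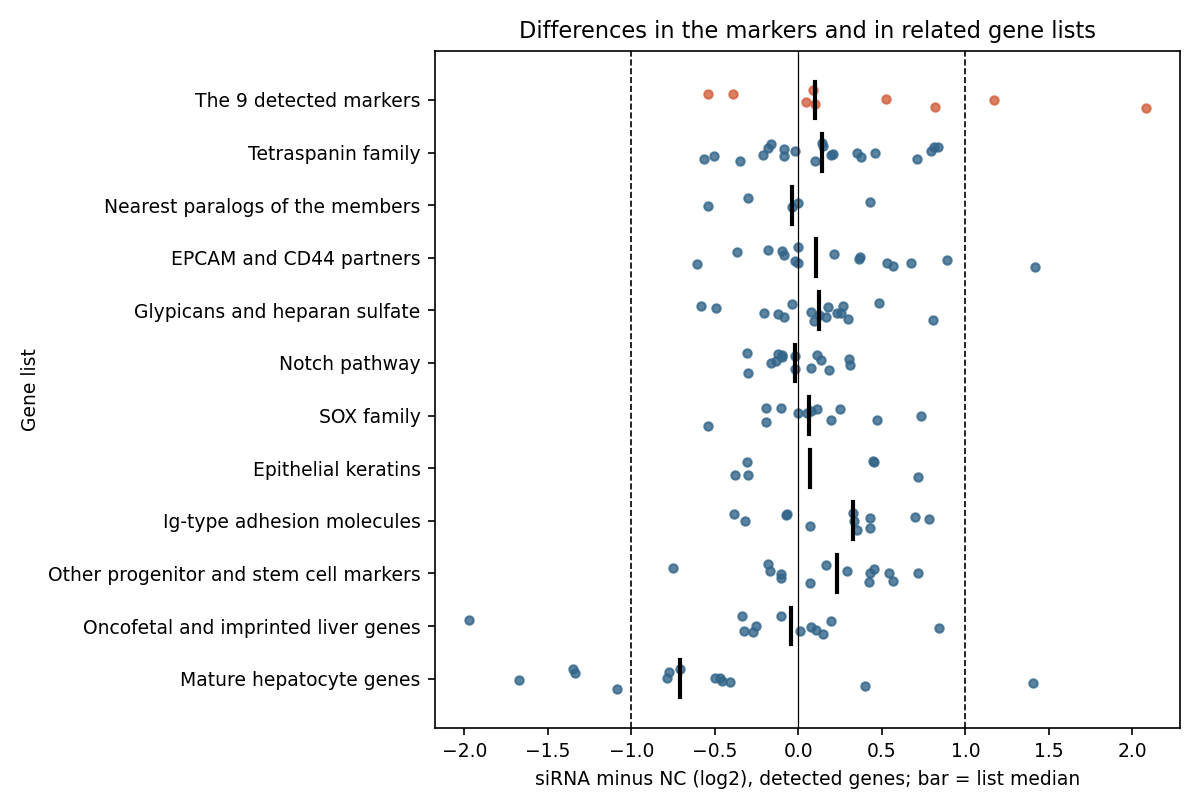
Difference between the arrays (siRNA minus NC, log2, horizontal axis) for each detected gene of the marker list (orange) and of 11 related lists (blue), 1 row a list; bars are list medians and dashed lines a 2-fold difference. The marker row spans -0.54 to 2.08 around a median of 0.10, the Notch row stays within 0.31 on either side, and the mature hepatocyte row is centred at -0.71.

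Of the 13 detected mature hepatocyte genes, 11 were lower and 2 higher, with a median of -0.71 against 0.00 for all detected genes. By measured values 4 were at least 2-fold lower and 1 at least 2-fold higher, and with values under the threshold set to it 3 were lower and 1 higher, against background shares of 0.863% and 1.94%. Of the 19 genes of the list on the array, 6 were not detected. SERPINA1 (alpha-1-antitrypsin) differed by -1.67, APOB (apolipoprotein B) by -1.35 and TF (transferrin) by -1.09. AHSG (fetuin A), under the threshold in the siRNA array, was at least 1.82-fold lower. TTR (transthyretin) was the one at least 2-fold higher, by 1.41, and APOA2 (apolipoprotein A-II) differed by 0.40. In the identity list, AFP, SERPINA1, APOB and TF were at least 2-fold lower, and the mean log2 value of its 8 genes was 9.76 in NC and 8.81 in siRNA. Of these genes ALB, APOA1, APOB, TF, SERPINA1 and FGB are also in the mature hepatocyte list, and AFP is in the oncofetal list. The identity list is therefore not a separate observation.

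Markers of other cell types stood as follows beside these differences. Of 8 cholangiocyte markers on the array 3 were detected, all 3 with a lower value in siRNA cells. With SSTR2, under the threshold in the siRNA array, set to it, they differed by -0.12 to -0.08. The list mean was 4.24 in NC and 4.11 in siRNA. The duct markers KRT7 (4.04 in both arrays) and CFTR (2.84 and 2.88) were under the threshold. Of 12 fibroblast and stellate cell markers 6 were detected and 3 were at least 2-fold higher, against 1.94% of all detected genes. These were LUM by 2.31, FBN1 by 2.19 and COL1A2 by 1.07. The other 3 detected, PDGFRA, COL1A1 and COL3A1, differed by 0.09, 0.06 and -0.04, while DCN, ACTA2 and PDGFRB were not detected. That list's mean was 4.67 in NC and 5.16 in siRNA. No endothelial marker of 8 was detected (means 3.37 and 3.32). Of 8 blood cell markers 3 were detected (means 4.18 and 4.31), LYZ (lysozyme) being 2.30-fold higher, and PTPRC, the common leukocyte marker, was under the threshold at 2.28 and 2.38. A log2 array value has no true 0, so none of these can be called absent. The part of the fibroblast-list genes in the marker differences was not tested. In bulk RNA a change in how many cells carry a marker and a change in the RNA per cell cannot be told apart.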

How the data were processed

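RNA of Huh-7 cells was measured on 2 arrays, 1 a group. Per the labels' protocols, TRIzol was used for extraction and cRNA was biotinylated for Affymetrix arrays. The submitters' processing notes name Expression Console and version 3.0 of the Transcriptome Analysis Console without their roles; background correction and normalization are not given in the sources used here. The deposited values carry no stated unit. Their range (1.39 to 12.75) and near-equal medians (4.67 in NC, 4.64 in siRNA) are those of log2 array values, so they were read as log2 values already normalized by the authors. The sorted columns differ by at most 0.0997, and 1940 of 33297 probe sets have the same value in both arrays.

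Genes were named by GEO's platform annotation, symbols being updated through Entrez identifiers (19429 of 19460 single-gene probe sets matched RefSeq's GRCh38.p14 table). Probe sets of several genes (1754) or with no gene listed (12083) were left out. A gene took its probe set with the highest mean. Named genes are the 10 markers, their listed relatives, DEPDC1 and up to 4 detected genes of largest absolute difference per list. Markers quoted as not detected, APOA2, COL1A1, COL3A1, neighbours and the genes quoted beside them were added after values were seen. So were the genes set beside the EPCAM probe sets by identifier. The markers and lists were chosen with earlier results of these data known. Alternatives covered the probe set rule, scaling, detection threshold, values under it and the fold; the floored counts of lists and neighbours were added later. The fold counts were tested on simulated data, and the motif search on short strings with known answers. Scripts used Python 3.11.15, pandas 2.3.3 and statsmodels 0.14.6.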

Additional observations from a re-analysis of the deposited data

How the results depend on the processing

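No paired analysis was possible because each group has 1 array, and for the same reason no array could be left out. TSPAN8 and PROM1 were at least 2-fold higher, and no marker was at least 2-fold lower, under all 9 alternatives that keep the fold at 2. Among the markers, the probe set rules could alter EPCAM only. The other detection thresholds and the lack of a filter changed which genes were kept, not their values. At the 75th percentile threshold of 6.49, the TSPAN8 NC value of 4.58 was not raised to it. The siRNA value of 6.66 lay less than 1 log2 unit above it, so the TSPAN8 bound depends on the threshold chosen. TSPAN8 was at most 2.11 and, with its NC value set to the main detection threshold, the median over all probe sets, 4.01-fold higher. PROM1 ranged from 1.17 to 1.20, ALCAM from 0.81 to 0.85, KRT19 from 0.51 to 0.55, CD24 from -0.54 to -0.51 and GPC3 from -0.39 to -0.36. EPCAM changed sign in 2 of 6 alternatives, both through the choice of probe set: -0.01 for the mean of its 2 probe sets and -0.13 for the dimmer one. The median of the markers was 0.09 to 0.13, except 0.31 with the threshold at the 75th percentile, where 8 markers were left since DLK1, like CD44, was below it. None of the 3 scalings turned the sign of any of the 10 markers, and median centring moved the median of all detected genes to 0.03. The related lists were not rescaled, so a listed gene nearer to 0 than that has no settled direction. Signal over background limits CD44, which was under the threshold, and DLK1 and the NC value of TSPAN8, which were within 0.12 log2 units of it.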
